A study of Mus musculus with 14 samples.

Results

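Elane, Mpo, Ctsg, Ms4a3, Lyz2, Hp, Trem3 and Anxa3 are 8 genes of neutrophil granules and of the progenitors that make granulocytes. They were taken by symbol from the table that compares transplanted old and young haematopoietic stem cells (HSCs), where they are 8 of 1043 genes. All 8 had values above 0 in every library. Those rows hold only genes the study had listed as higher in old HSCs, so granule genes outside that list could not be members. The 583 genes of the separate Clu knockout comparison hold 0 of them, and only S100a8 and S100a9 of the granule lists used below. Those knockout rows are also only a part of the transcriptome. The absence of a gene from them therefore does not show that it was unexpressed or unchanged after the knockout.

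The study asked how HSCs change with age and what the gene Clu does in them. In the experiment used here, old HSCs (oHSCs, 4 libraries) and young HSCs (yHSCs, 3 libraries) from wild-type mice were transplanted into CD45.1 recipients, a congenic strain whose leukocytes carry another form of CD45, so that donor cells can be told from those of the host. Donor-derived HSCs were sorted from bone marrow 4 months later, so both groups had passed through irradiated recipients and differ in the age of the donor. The exact donor age of these libraries is not stated in the labels, which also do not say whether each library is a separate animal, and the p-values then measure only the spread between these libraries. The other 7 libraries of the series are oHSCs that received a guide against Clu (4) or a control guide (3).

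Values are FPKM, fragments scaled to transcript length and to the mapped fragments of the library, as the deposited table appears to hold them. No unit is given in its headers, and TPM is possible. The table holds only genes that the study had already listed as higher in oHSCs from these same 7 libraries, so the direction is largely given by that choice, and the p-values below describe a selected list and are not independent evidence. In the deposited values, 1006 of the 1043 genes had a higher mean log2 level in oHSCs and 37 a lower one, 10 of them past the limits used here. The sequencing depth is unknown. In bulk RNA, fewer cells of a type and less RNA per cell cannot be told apart.

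Neutrophils are made in the bone marrow from granulocyte-monocyte progenitors, and their granules are filled in waves. Promyelocytes load the primary, or azurophil, granules with myeloperoxidase and serine proteases, and later stages load the secondary and tertiary granules. HSCs stand far upstream of these stages, but RNA of granule genes is often found at low or variable levels in stem and progenitor cells that lean towards the myeloid lineage.

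The members group by role. Elane (neutrophil elastase) and Ctsg (cathepsin G) encode serine proteases of the primary granule, and Mpo encodes myeloperoxidase, which makes hypochlorous acid from hydrogen peroxide and chloride. Lyz2 encodes lysozyme, which cuts bacterial cell walls and is made by both granulocytes and macrophages. Ms4a3 encodes a membrane protein used as a marker of granulocyte-monocyte progenitors. Hp encodes haptoglobin, which binds free haemoglobin and is also stored in neutrophil granules. Trem3 encodes a receptor of the TREM family found on myeloid cells, and Anxa3 encodes an annexin, a protein that binds membranes in the presence of calcium and is associated with neutrophil granules.

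In the GENCODE M21 annotation of GRCm38 (mm10), all 8 are protein-coding. Elane lies at chr10:79886247-79888215 on the plus strand with 5 exons, and Ctsg at chr14:56099881-56102574 on the minus strand with 5 exons. Mpo lies at chr11:87793581-87804413 on the plus strand with 14 exons. Ms4a3 is at chr19:11629496-11640851, Lyz2 at chr10:117277331-117282321 and Hp at chr8:109575128-109579172, each on the minus strand, while Trem3 is at chr17:48247777-48258841 and Anxa3 at chr5:96793339-96845966 on the plus strand. Of the 50-base words in the longest transcript of each gene, 12.0% of those of Mpo also occur in Gm11505, whose exons overlap it, and 15.4% of those of Lyz2 also occur in its paralogue Lyz1. Anxa3 shares exonic positions with Gm42603, but 0% of the words of its longest transcript occur in another gene. How reads in such stretches were counted is not stated, so the levels of Mpo and Lyz2 are less certain than those of the other members. For Anxa3 this holds only for reads in the overlapping positions.

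Promoter sequence was given for 5 of the 8 genes in the RefSeq table (GRCm38), namely Elane, Mpo, Ctsg, Ms4a3 and Lyz2, and the 250 bases before the RefSeq start were searched on both strands for letters bound by factors of the granulocyte lineage. PU.1, C/EBP, RUNX and MYB proteins are known to drive primary granule genes. The letters GAGGAA, used for PU.1, occurred in 3 of the 5 windows (Elane, Mpo and Ctsg) and in 23.3% of all 32851 windows of that length. These 3 promoters are printed 5′ to 3′ on the strand of the gene, with matches in capitals, because they belong to the primary granule enzymes with which the results below are concerned. RefSeq places the starts of Elane and Mpo downstream of the GENCODE start, so only the bases before both starts are shown.
Elane (chr10:79886062-79886246, plus strand): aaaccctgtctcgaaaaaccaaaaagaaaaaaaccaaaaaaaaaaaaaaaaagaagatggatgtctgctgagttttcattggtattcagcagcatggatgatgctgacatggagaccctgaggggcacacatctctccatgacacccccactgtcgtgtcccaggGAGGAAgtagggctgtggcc
Mpo (chr11:87793534-87793580, plus strand): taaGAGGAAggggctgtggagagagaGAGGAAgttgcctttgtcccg
Ctsg (chr14:56102575-56102824, minus strand): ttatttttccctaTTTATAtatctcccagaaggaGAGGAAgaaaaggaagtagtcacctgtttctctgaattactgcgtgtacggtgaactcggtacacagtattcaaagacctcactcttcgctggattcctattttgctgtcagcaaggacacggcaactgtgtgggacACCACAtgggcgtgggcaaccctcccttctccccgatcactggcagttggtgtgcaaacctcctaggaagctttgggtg

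The capitals GAGGAA stand 85 to 80 bases before the RefSeq start in Elane, 216 to 211 bases before it in Ctsg, and at 247 to 242 and again at 224 to 219 bases before it in Mpo. In Ctsg, ACCACA is the opposite strand of TGTGGT, the letters used for RUNX, which were also found in Lyz2 and in 14.0% of all windows. TTTATA in Ctsg is the opposite strand of TATAAA, found in 12.4% of all windows, and lies 237 to 232 bases before the start. The letters TAACNG, used for MYB, occurred in Elane and Mpo, in stretches that are not shown, and in 19.8% of all windows. The letters TTGCNNAA, used for C/EBP, occurred in 0 of the 5 windows and in 9.56% of all windows. A match is a run of letters and not a measured binding site, and a missing match says only that the letters are not in that window.

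Among the proteases, Elane had the highest mean level of the 8 genes. Its level was 5743, 3800, 4109 and 4383 FPKM in oHSC replicates 1 to 4 and 2365, 2367 and 1825 FPKM in yHSC replicates 1 to 3. Every oHSC library lay above every yHSC library, and in each of the 7 libraries Elane ranked between 1 and 7 among the 1043 genes. The group means were 4509 ± 857 FPKM (SD, n = 4) and 2186 ± 313 FPKM (SD, n = 3), a ratio of 2.06. On the log2(FPKM + 1) scale the difference was 1.04 (SE 0.23, limma adjusted p = 0.0120).

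Ctsg was at 1821, 1540, 1484 and 1694 FPKM across oHSC replicates 1 to 4, against 1028, 1129 and 938 FPKM across the yHSC replicates. The groups did not overlap, and Ctsg had the lowest relative spread of the 8 among oHSC libraries, with a coefficient of variation of 9.35% against 19.0% for Elane. Its mean was 1635 ± 153 FPKM (oHSCs, SD, n = 4) against 1032 ± 95.8 FPKM (yHSCs, SD, n = 3), a ratio of 1.58. The log2 difference was 0.66 (SE 0.20, limma adjusted p = 0.0321).

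The peroxidase gene Mpo had the largest difference of the 8 and also the widest relative spread in oHSCs, with a coefficient of variation of 31.0%. It was at 2145, 1890, 1022 and 1402 FPKM across oHSC replicates 1 to 4, against 756, 721 and 558 FPKM across the yHSC replicates. Replicates 1 and 2 of the oHSCs were well above replicates 3 and 4, yet the lowest oHSC library was still above the highest yHSC library. The means were 1615 ± 501 FPKM (SD, n = 4) and 678 ± 105 FPKM (SD, n = 3), a ratio of 2.38, and the log2 difference was 1.21 (SE 0.28, limma adjusted p = 0.0146).

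The progenitor marker Ms4a3 was at 1132, 760, 988 and 1169 FPKM across oHSC replicates 1 to 4, against 679, 628 and 610 FPKM across the yHSC replicates. The yHSC libraries lay close together, and the lowest oHSC library, replicate 2, was only a little above them. The means were 1012 ± 185 FPKM (SD, n = 4) and 639 ± 36.0 FPKM (SD, n = 3), a ratio of 1.58, with a log2 difference of 0.64 (SE 0.22, limma adjusted p = 0.0461).

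Lyz2 was the member with the least firm difference. Its level was 408, 360, 358 and 255 FPKM across oHSC replicates 1 to 4, against 283, 215 and 164 FPKM across the yHSC replicates. The groups overlapped, as oHSC replicate 4 was below yHSC replicate 1. The means were 345 ± 64.5 FPKM (SD, n = 4) and 221 ± 59.7 FPKM (SD, n = 3), a ratio of 1.56, and the log2 difference of 0.66 (SE 0.26) had an unadjusted limma p of 0.0294 and an adjusted p of 0.0609. With the replicate number as a block, which gives no weight to oHSC replicate 4, the difference was 0.80 with an adjusted limma p of 0.0243. With the libraries left out singly, Lyz2 passed the limits in 2 of 7 fits, and its difference fell to 0.46 without yHSC replicate 3.

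Hp, the gene of the group with the lowest level, was at 45.8, 48.4, 23.1 and 38.4 FPKM across oHSC replicates 1 to 4, against 17.7, 28.5 and 16.7 FPKM across the yHSC replicates. The groups overlapped because oHSC replicate 3 was below yHSC replicate 2. The means were 38.9 ± 11.4 FPKM (SD, n = 4) and 20.9 ± 6.54 FPKM (SD, n = 3), a ratio of 1.86, with a log2 difference of 0.85 (SE 0.30, limma adjusted p = 0.0489). Hp passed the limits in 4 of the 7 fits that left out a library and missed them without oHSC replicate 2 (0.73), yHSC replicate 1 (0.75) or yHSC replicate 3 (0.72 on the log2 scale).

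The myeloid receptor gene Trem3 was at 82.2, 78.6, 63.0 and 85.6 FPKM across oHSC replicates 1 to 4, against 40.8, 43.1 and 49.2 FPKM across the yHSC replicates. The groups did not overlap. The means were 77.4 ± 9.95 FPKM (SD, n = 4) and 44.4 ± 4.32 FPKM (SD, n = 3), a ratio of 1.74, with a log2 difference of 0.78 (SE 0.21, limma adjusted p = 0.0217). Trem3 was the exception to the order of the yHSC libraries, since the other 7 members were lowest in yHSC replicate 3 and Trem3 was highest there.

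Anxa3 was at 112, 92.8, 66.6 and 78.3 FPKM across oHSC replicates 1 to 4, against 57.7, 49.9 and 35.7 FPKM across the yHSC replicates, again with no overlap. The means were 87.5 ± 19.8 FPKM (SD, n = 4) and 47.7 ± 11.2 FPKM (SD, n = 3), a ratio of 1.83. Its log2 difference was 0.86 (SE 0.26, limma adjusted p = 0.0311).

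**Figure D1:**
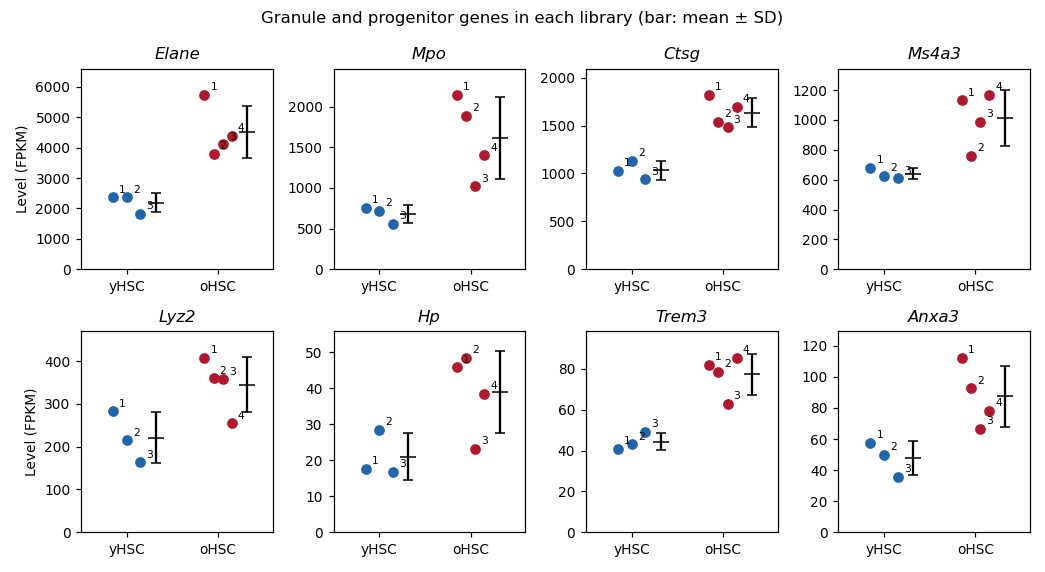
Level in FPKM (linear vertical axes from 0) of each of the 8 genes in the 3 yHSC libraries (blue) and the 4 oHSC libraries (red), with the replicate number beside each point and the mean ± SD as a black bar. The groups are apart for 6 genes and overlap for Lyz2 and Hp.

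By mean level in oHSCs the order was Elane, Ctsg, Mpo, Ms4a3, Lyz2, Anxa3, Trem3 and Hp. Ctsg and Mpo did not differ beyond their spread in oHSCs (1635 ± 153 and 1615 ± 501 FPKM, SD, n = 4), nor did Anxa3 and Trem3 (87.5 ± 19.8 and 77.4 ± 9.95 FPKM, SD, n = 4). In yHSCs, Mpo and Ms4a3 were also within their spread (678 ± 105 and 639 ± 36.0 FPKM, SD, n = 3), while Ctsg stood above both. The 8 genes span a wide range of abundance, from the top of the table for Elane to ranks between 209 and 335 of 1043 for Hp.

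All 8 members passed an unadjusted p of 0.05 and a log2 difference of 0.5 as higher in oHSCs, limits under which 62.5% of the 1043 genes were also called higher. With the adjusted p in place of the unadjusted one, 7 of 8 members passed, all but Lyz2, and 37.3% of all genes did. The groups did not overlap for 6 of 8 members and for 49.7% of all genes. For these 6 genes the exact two-sided permutation p over the 35 assignments of libraries was 0.0571, the smallest this design allows, so a single gene cannot reach 0.05 in it. For Lyz2 and Hp the exact permutation p was 0.114. The replicate block assumes a pairing that the labels do not state, so its calls are no firmer than those above. With it all 8 members passed, as did 72.1% of all genes. Each of the 8 then had an adjusted limma p under 0.05, as did 689 of the 1043 genes in either direction.

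The median log2 difference of the 8 members was 0.82, beside 0.70 over all 1043 genes. Relative to the median of all genes, Mpo was 0.51 higher, Elane 0.34, Anxa3 0.16, Hp 0.15 and Trem3 0.084, while Ctsg was at -0.036, Lyz2 at -0.041 and Ms4a3 at -0.055. With a log2 limit of 1 in place of 0.5, Elane and Mpo, 2 of the 8, passed, as did 18.9% of all genes. Scaling the libraries to each other over the listed genes removes most of a difference that the listed genes share, by construction, and it brought the median of all genes to 0.07 by median of ratios, 0.06 by TMM and 0.19 by column totals. None of the 8 passed the limits after these scalings, beside 12.0%, 11.8% and 14.5% of all genes. Elane and Mpo stayed positive under all 3 scalings, at 0.21, 0.19 and 0.37 and at 0.38, 0.36 and 0.54 in that order, as did Hp and Anxa3, at 0.029 to 0.20. Ctsg, Ms4a3 and Lyz2 were below 0 under all 3, and Trem3 was below 0 under median of ratios and TMM and at 0.12 by column totals.

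**Figure D2:**
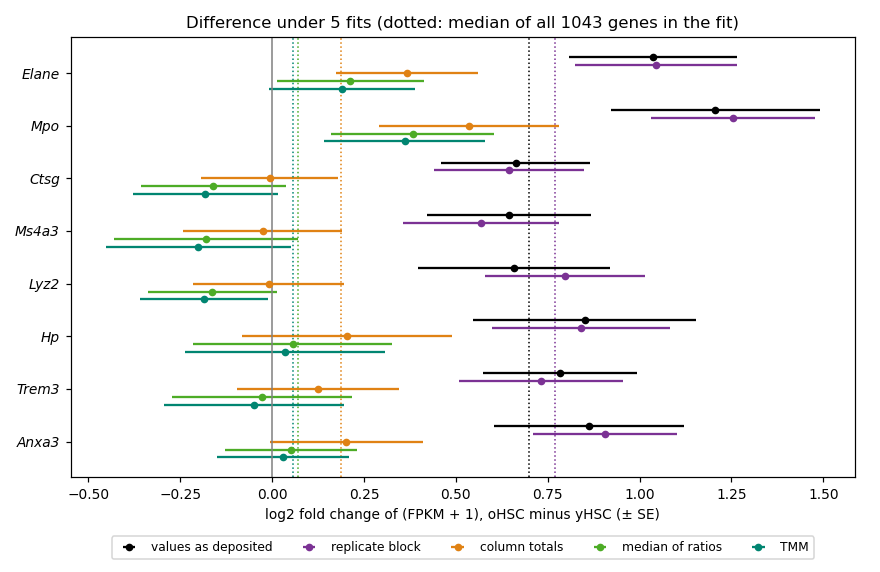
Difference between oHSCs and yHSCs on the log2(FPKM + 1) scale (horizontal axis) for each gene, as points with SE bars, for the values as deposited, with the replicate block and after 3 scalings over the 1043 genes, with the median of all genes in each fit as a dotted line. Mpo and Elane lie to the right of the median of all genes in each of the 5 fits, and Ctsg and Ms4a3 to its left.

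A share of the summed FPKM of the table does not depend on the scaling of a library. The 8 members took 13.7%, 11.0%, 10.8% and 12.7% of it in the oHSC libraries and 9.57%, 10.5% and 9.94% in the yHSC libraries. Every oHSC library was above every yHSC library, though oHSC replicate 3 and yHSC replicate 2 were close. The means were 12.04 ± 1.38% (SD, n = 4) and 10.01 ± 0.477% (SD, n = 3), a difference of 2.03 percentage points (exact two-sided permutation p = 0.0571, the smallest possible). The members' sum was 1.91 times as high in oHSCs and that of the other genes 1.55 times.

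This difference in share lay almost wholly in Elane and Mpo. Elane alone took 5.82 ± 0.837% (SD, n = 4) in oHSCs and 4.49 ± 0.277% (SD, n = 3) in yHSCs, without overlap (exact permutation p = 0.0571). Mpo took 2.07 ± 0.542% and 1.39 ± 0.0700%, with overlap because oHSC replicate 3 was at 1.36% (exact permutation p = 0.171 for n = 4 and n = 3). The other 6 genes together took 4.15 ± 0.402% in oHSCs and 4.13 ± 0.242% in yHSCs, a difference of 0.011 percentage points (exact permutation p = 0.971). Elane and Mpo were set apart as the members with the largest log2 differences in these same libraries. A small remainder is therefore largely given by that choice, and its p-value cannot decide whether the other 6 genes differ in share. Relative to the other genes without the 10 highest of them, the members' sum was 21.5% in oHSCs and 19.3% in yHSCs, with overlap (exact permutation p = 0.286). The mean log2 level of the members minus that of all genes was 4.98 and 4.89, also with overlap (exact permutation p = 0.514), a measure that weights each member alike and so gives less room to Elane.

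**Figure D3:**
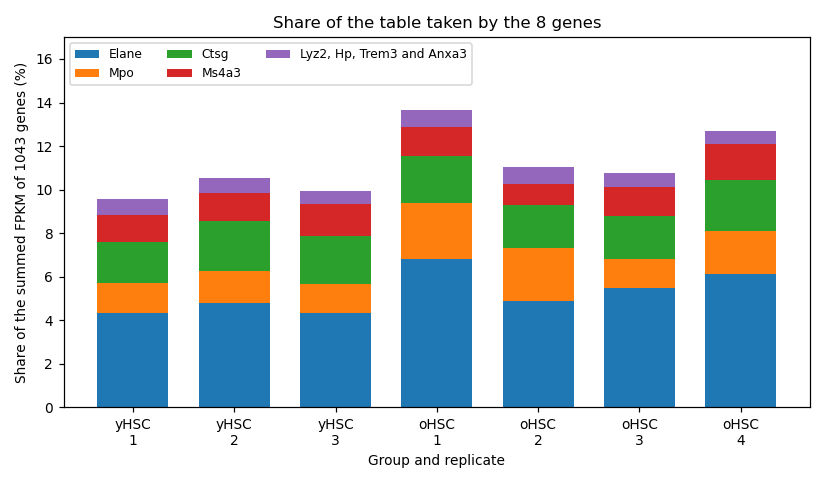
Share of the summed FPKM of the 1043 genes (vertical axis, percent) taken by the 8 genes in each library, stacked by gene, with the 4 least abundant genes as 1 segment. The total is between 9.57% and 10.5% in the yHSC libraries and between 10.8% and 13.7% in the oHSC libraries, and the segment of Elane is larger in each oHSC library than in any yHSC library.

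The members were also compared with Elane inside each library, as a log2 ratio that carries no library scaling. The ratio of Ctsg to Elane, both primary granule proteases, was -1.66, -1.30, -1.47 and -1.37 in the oHSC libraries and -1.20, -1.07 and -0.96 in the yHSC libraries. It was lower in each oHSC library than in any yHSC library, by 0.37 on average (exact permutation p = 0.0571, and 0.4 after Benjamini-Hochberg adjustment over the 7 ratios). This separation depended on Elane as the reference. Against the mean of the other 7 members, the difference for Ctsg was -0.21 and the groups overlapped (exact permutation p = 0.171). The ratio of Mpo to Elane was -1.42, -1.01, -2.01 and -1.64 in the oHSC libraries and -1.65, -1.72 and -1.71 in the yHSC libraries. The oHSC values lie on both sides of the narrow yHSC range, and the mean difference of 0.17 was within that spread (exact permutation p = 0.629).

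The other 5 ratios to Elane were lower on average in oHSCs and overlapped between the groups. The differences were -0.39 for Ms4a3 (exact permutation p = 0.114), -0.38 for Lyz2 (p = 0.229), -0.24 for Trem3 (p = 0.4), -0.16 for Anxa3 (p = 0.457) and -0.16 for Hp (p = 0.8), each by the same exact test. With 1 library left out, these differences ranged from -0.36 to -0.039 for Trem3 (the latter without yHSC replicate 3), from -0.28 to -0.073 for Anxa3 (the latter without yHSC replicate 1) and from -0.48 to -0.24 for Lyz2 (the latter without yHSC replicate 1). No ratio passed the adjusted limit, and with 4 and 3 libraries none could.

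**Figure D4:**
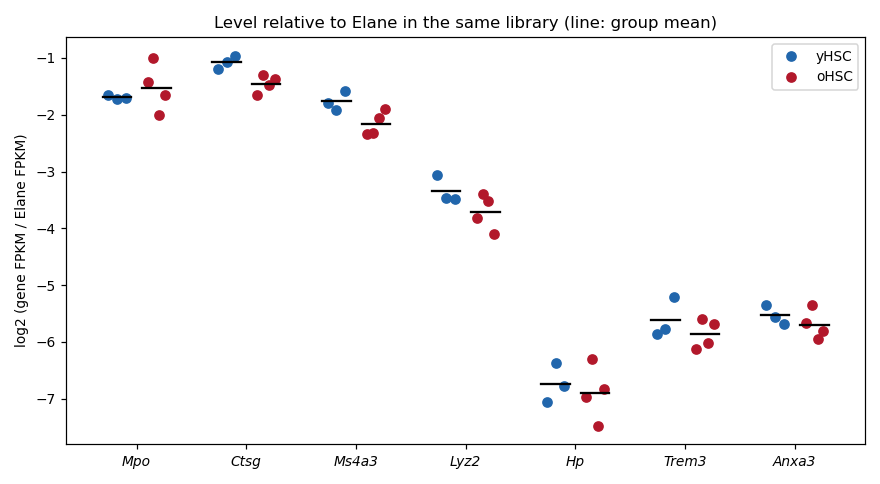
Log2 ratio of each gene's FPKM to that of Elane in the same library (vertical axis) for the 7 other genes, in the 3 yHSC libraries (blue) and 4 oHSC libraries (red), with the group mean as a line. With Elane as the reference, Ctsg is the gene whose groups do not overlap, with group means of -1.45 in oHSCs and -1.08 in yHSCs.

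Inside the groups, most members moved the same way in some libraries, while other libraries were mixed. In oHSCs, replicate 1 was above the group mean for all 8 members and replicate 3 for 1 of 8, and on the log2 scale the mean deviation of the members was 0.27 and -0.26. In yHSCs, replicate 3 was above the group mean for 1 of 8 and had a mean deviation of -0.20. The members were mixed in oHSC replicates 2 and 4, with 5 and 4 of 8 above the group mean. They were also mixed in yHSC replicates 1 and 2, with 5 of 8 above it in each. The median deviation of all 1043 genes was 0.12 in oHSC replicate 1, -0.07 in oHSC replicate 3 and -0.21 in yHSC replicate 3, where the members and the whole table were lower by about the same amount. The part of such library-wide shifts in the members' deviations was not tested.

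Among the 538 other genes whose higher group mean reached 10 FPKM, the 5 whose log2 profile over the 7 libraries was nearest to the mean profile of the members, each centred on its own mean, were Fam118b, Dstn, Phb, Pdia4 and Zc3hc1. Their root-mean-square differences from it were 0.072, 0.11, 0.12, 0.12 and 0.13 log2 units, against a median of 0.32 for the 538 genes. With each gene centred in its group, so that the age difference is removed, the nearest were Ncoa4, B4galnt1, Fam118b, Dstn and Wdr55, at 0.043 to 0.11 log2 units against a median of 0.28. The members themselves, which are part of the mean profile, were at 0.13 (Anxa3 and Ctsg) to 0.27 (Hp) by the first measure. By the second measure they were at 0.094 (Ctsg) to 0.27 (Hp), with Lyz2 at 0.24 and Ms4a3 at 0.22, beside the median of 0.28. All profiles share the same 7 libraries.

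Other genes of the granulocyte programme were read from lists of general knowledge, and most of their genes are not among the rows and were not analysed here. Since the rows were chosen as higher in oHSCs, the direction of each list below is that of the table, and each count stands beside the 62.5% of all genes called higher under the same limits. Of 15 primary granule and progenitor genes 7 were measured and 6 passed as higher, 5 of them members, and 0 passed after each of the 3 scalings. The sixth was Cst7, an inhibitor of cysteine proteases, at 246 ± 36.1 FPKM (oHSCs, SD, n = 4) against 153 ± 34.1 FPKM (yHSCs, SD, n = 3), a log2 difference of 0.69 that turned to -0.13 and -0.15 under median of ratios and TMM. Ctsc, the protease that activates elastase, cathepsin G and other granule proteases, was at 31.9 ± 14.5 and 20.5 ± 8.38 FPKM, with a log2 difference of 0.59 that missed the p limit (limma adjusted p = 0.177). With the replicate block Ctsc passed the unadjusted limits at 0.82 (limma adjusted p = 0.0203), as did 72.1% of all genes. The block gives no weight to oHSC replicate 4, the lowest oHSC library for Ctsc at 17.9 FPKM. Under median of ratios, TMM and column totals Ctsc was at -0.20, -0.22 and -0.050.

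Of 20 secondary granule and late neutrophil genes 5 were measured and 4 passed as higher, the members Anxa3, Hp and Trem3 and the annexin gene Anxa1, at 267 ± 60.0 FPKM (oHSCs, SD, n = 4) against 165 ± 53.2 FPKM (yHSCs, SD, n = 3). Without yHSC replicate 3 the count was 2, beside 405 of the 1043 genes. After each of the 3 scalings it was 0, beside 12.0%, 11.8% and 14.5% of all genes. Anxa1 was at -0.10 and -0.13 under median of ratios and TMM. Mmp8, a collagenase of neutrophil granules, was at 1.96, 1.40, 0 and 0.28 FPKM in the oHSC libraries and did not pass. In each yHSC library it was at or below 0.29 FPKM. With the replicate block it passed the unadjusted limits at a log2 difference of 0.76 (limma adjusted p = 0.0627), as did 72.1% of all genes. Ltf, Camp, Ngp and Lcn2, defining genes of the secondary granule, are not among the rows and were not analysed here.

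Of 18 transcription factors and receptors of granulocyte development 6 were measured and 4 passed as higher. Cebpb, a factor of emergency granulopoiesis, had a log2 difference of 1.45 (limma adjusted p = 0.00718) and Gfi1b, a transcriptional repressor needed for erythroid and megakaryocytic development, one of 1.75 (limma adjusted p = 0.0137). The Fc receptor genes Fcgr3 and Fcgr2b also passed, Fcgr3 at means of 117 and 41.1 FPKM and Fcgr2b at 38.3 and 22.4 FPKM. Cebpb, Gfi1b and Fcgr3 also passed the unadjusted limits after each of the 3 scalings, while Fcgr2b did not and was at -0.078 and -0.099 under median of ratios and TMM. Spi1, which encodes PU.1, was at 80.0, 77.3, 61.0 and 53.3 FPKM across oHSC replicates 1 to 4, against 61.2, 52.8 and 25.6 FPKM across the yHSC replicates, overlapping, with a log2 difference of 0.61 that did not pass (limma adjusted p = 0.105). With the replicate block, which gives no weight to oHSC replicate 4, Spi1 passed at 0.71 (limma adjusted p = 0.0385). Of all genes, 72.1% passed the unadjusted limits with the block. After the 3 scalings Spi1 was below 0. Csf1r, the receptor for M-CSF, was at means of 2.17 and 1.67 FPKM and did not pass either.

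Markers of other cell types were also among the rows, chosen like all others as higher in oHSCs. Of 12 mast cell and basophil markers 8 were measured and all 8 passed, beside 62.5% of all genes, and 4 passed with the adjusted p, beside 37.3%. Their summed level was 496 to 790 FPKM in oHSCs and 233 to 370 FPKM in yHSCs. The mast cell proteases Cma1, Tpsb2, Tpsab1 and Mcpt4 were listed at 0 in all yHSC libraries, and Cma1 was at 54.6, 58.9, 11.6 and 11.8 FPKM in the oHSC libraries. Of 14 erythroid markers 7 were measured and 6 passed (1548 to 2439 FPKM summed in oHSCs, 821 to 1135 in yHSCs), and of 9 megakaryocyte markers 4 were measured and 3 passed (269 to 498 and 175 to 241 FPKM). Of 12 monocyte markers 3 were measured and 2 passed, with sums of 34.9 to 59.8 and 13.6 to 34.8 FPKM. Of 16 lymphoid markers only Igll1 was measured, at 2.69 FPKM or below, and of 10 dendritic cell markers only H2-Aa, and both passed. After the 3 scalings 5 of the mast cell and basophil markers, 1 or 2 of the erythroid markers and 0 of the megakaryocyte markers passed, beside 12.0%, 11.8% and 14.5% of all genes, and with a pseudocount of 0.1 the mast cell count was 5. Mcpt8 and H2-Aa were below 0 under all 3 scalings, and the megakaryocyte gene Pf4 under median of ratios and TMM. With the replicate block 5 erythroid and 2 megakaryocyte markers passed, beside 72.1% of all genes. The part of these cell types in the levels of the granule genes was not tested.

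Of 15 HSC markers 3 were measured, and because of how the rows were chosen they cannot check the sorted identity. All 3 passed as higher in oHSCs, beside 62.5% of all genes. With the replicate block 2 passed, beside 72.1% of all genes. Without yHSC replicate 3 only 1 passed, beside 405 of the 1043 genes. After each of the 3 scalings 0 passed, beside 12.0%, 11.8% and 14.5% of all genes, and Pdzk1ip1 was at -0.18, -0.20 and -0.029. Procr, an endothelial protein C receptor of HSCs, was at 12.4 ± 3.26 FPKM (oHSCs, SD, n = 4) against 6.32 ± 2.38 FPKM (yHSCs, SD, n = 3), and Slamf1, which encodes the CD150 used to sort HSCs, at 3.48 ± 0.709 and 1.82 ± 1.31 FPKM. The summed level of the 3 was 124 to 143 FPKM in oHSCs and 73.9 to 92.0 FPKM in yHSCs. Kit, Ly6a, Mecom and the other 9 are not among the rows and were not analysed here.

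**Figure D5:**
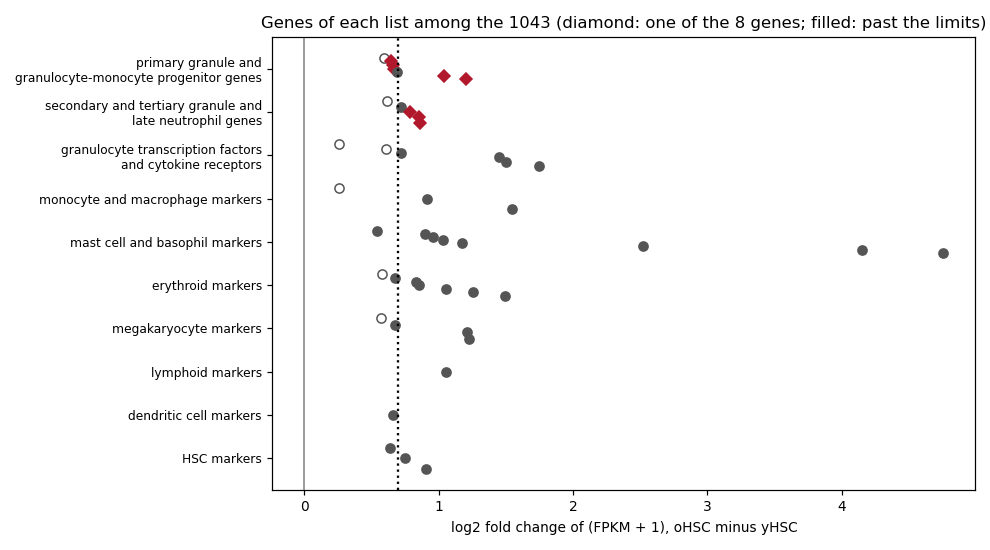
Difference between oHSCs and yHSCs on the log2(FPKM + 1) scale (horizontal axis) for each measured gene of 10 lists, with members as red diamonds, other genes as grey circles, filled where past the limits, and the median of all 1043 genes (0.70) as a dotted line. All points lie to the right of 0, as do 1006 of the 1043 genes, which the study had listed as higher in oHSCs.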

How the data were processed

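RNA-seq of 7 libraries of donor-derived HSCs, 4 oHSC and 3 yHSC, was used. The authors prepared SMART-Seq libraries and used TrimGalore for trimming, Hisat2 for alignment to mm10, FeatureCounts for counting and DESeq2 for calling genes. The step that made the deposited values and the gene annotation are not given in the sources used here. The deposited values were taken as FPKM, normalized by the authors. The table holds only genes the study lists as higher in oHSCs. Values below 1 FPKM showed no steps of whole reads (at most 5.80% of low genes within a window of 1%), so no count model was run and depth is unknown.

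Differences were fitted with limma (version 3.58.1, R 4.3.3) to log2(FPKM + 1) over all 1043 genes, two-sided, without a covariate. Limits were an unadjusted p of 0.05 and an absolute log2 difference of 0.5, and adjusted p-values follow Benjamini and Hochberg. Shares and ratios were compared by exact two-sided permutation tests over 35 assignments, doubling the smaller tail. The fit was tested on simulated data. Alternatives were a pseudocount of 0.1, a filter at 1 FPKM, 3 scalings (TMM by own code), a variance trend, a variance per gene, the replicate block, adjusted p, a log2 limit of 1 and each library left out.

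Replicate numbers come from the labels. The labels state no pairing. Deviations from the group means correlated across genes at 0.405, 0.163 and 0.161 for libraries of the same number, each above 0.1. However, oHSC replicate 4, which has no partner, correlated with yHSC replicate 3 at 0.191, above 0.163 and 0.161. The numbers were nonetheless taken to pair the libraries in the fit with the block, a pairing that neither the labels nor these correlations establish. For the 8 members its log2 differences equal those of the fit without oHSC replicate 4. That fit gives no weight to oHSC replicate 4, the lowest oHSC library for Lyz2, Ctsc and Spi1. The named genes are the 8 members, list genes by count and by name where past the limits or where a defining marker, and the 5 genes nearest to the members' profile by 2 centrings. The members and the lists were chosen with earlier results of these data known. Positions are from GENCODE M21 and promoters from RefSeq, both GRCm38.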

Additional observations from a re-analysis of the deposited data

How the results depend on the processing

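Of the 1043 genes, 652 were called higher, and the count was 125, 123 and 151 after scaling by median of ratios, TMM and column totals, 389 with the adjusted p, 197 with a log2 limit of 1, and between 405 and 655 when 1 library was left out, the lowest without yHSC replicate 3. Of the 8 members 0 were called after each of the 3 scalings, which by construction remove a difference the listed genes share, 2 with a log2 limit of 1, and between 6 and 8 with 1 library left out, 6 without oHSC replicate 2 or yHSC replicate 3. Under median of ratios, TMM and column totals in turn, the log2 difference was -0.16, -0.18 and -0.0067 for Ctsg, -0.18, -0.20 and -0.025 for Ms4a3 and -0.16, -0.19 and -0.010 for Lyz2, and for Trem3 it was -0.028 and -0.049 under the first pair. Lyz2 also missed the unadjusted limit with a pseudocount of 0.1, and Hp with a variance per gene. Against the mean of the other 7 members in place of Elane, the ratio turned to 0.041 for Hp and 0.034 for Anxa3. With 1 library left out, the ratio to Elane ranged from -0.0011 to 0.33 for Mpo and from -0.36 to 0.039 for Hp, and the difference in share from 1.49 to 2.45 percentage points. The replicate block gave 752 genes and 8 members, changed no call of a member under the unadjusted limits, and gave a difference in share of 1.81 percentage points. The cause of the other changes was not tested. Unknown depth limits the lower values, such as those of Mmp8.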

Other observations

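Within the oHSC group, Mpo, Hp, Anxa3 and Lyz2 were each higher in replicates 1 and 2 than in replicates 3 and 4, as were 5 of the 8 measured mast cell and basophil genes, Cd200r3 (3.78 and 2.80 against 0 and 1.45 FPKM), Cma1 (54.6 and 58.9 against 11.6 and 11.8 FPKM), Tpsb2 (30.1 and 36.4 against 6.55 and 10.3 FPKM), Mcpt4 (7.56 and 6.76 against 2.41 and 3.77 FPKM) and Hdc (25.6 and 26.5 against 9.29 and 15.5 FPKM). The other 3, Cpa3 (425, 238, 302 and 258 FPKM in replicates 1 to 4), Tpsab1 (2.34, 0.029, 1.18 and 0.89 FPKM) and Mcpt8 (241, 200, 163 and 215 FPKM), did not share this order, nor did Elane, Ms4a3, Ctsg and Trem3. For Lyz2, replicates 2 and 3 were nearly equal, at 360 and 358 FPKM. The table as a whole was split alike. On the log2 scale, the median deviation of all 1043 genes from the oHSC group mean was 0.12, 0.13, -0.07 and -0.16 in replicates 1 to 4. The part of this shift in the order of the named genes was not tested. The named genes were chosen after their values were seen, the comparison is between single libraries of 1 group, and no test was made.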
